A study of Mus musculus with 6 samples.

Results

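The genes described here encode voltage-gated sodium channels, voltage-gated calcium channels, HCN channels and TRP channels, together with the auxiliary subunits of the sodium and calcium channels. They were chosen by symbol, and 57 of the 19251 genes of the deposited table matched. Of these, 56 encode channel subunits and 1, Trpc4ap, encodes a protein that binds a TRP channel and forms no pore. The genes Cacna1f, Cacng1, Cacng6, Scn4a, Scn10a, Trpa1, Trpm5, Trpm8, Trpv5 and Trpv6 were not analysed here. All 57 passed the filter on low counts. Messenger RNA of the substantia nigra was sequenced from C57BL/6 mice, in 3 libraries per diet. In 1 group the mice were on intermittent fasting, with food withdrawn for 24 hours on 3 days a week. In the other group food was given ad libitum, and these mice were moved between cages at the same times. The diets began 2 weeks after surgery and lasted 10 weeks. Both groups carried rAAV-A53T-aSynuclein, the label's name for a model of Parkinson's disease in which a recombinant adeno-associated virus delivers a mutant form of alpha-synuclein. No library without the virus was analysed here, so the values describe the diet within this model. The sources used here do not give age, sex, the promoter of the vector, the side sampled or the time since the last fast.

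Sodium channels carry the upstroke of the action potential, and calcium channels turn depolarisation into calcium entry, transmitter release and gene regulation. HCN channels open on hyperpolarisation and help to set the rhythm of pacemaking cells, while TRP channels are cation channels that respond to lipids, heat, osmotic stress, oxidants or receptor signalling. Dopamine neurons of the substantia nigra fire without input, and L-type calcium channels and HCN channels contribute to that activity, which is why these families are studied in Parkinson's disease.

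Levels are in CPM, the deposited estimated counts divided by TMM-scaled library size, and log2 fold changes are fasting over ad libitum. Calls rest on the edgeR quasi-likelihood test, with Benjamini-Hochberg adjusted p-values over all 19109 tested genes and a threshold of 0.05. Total counts ran from 42990234 to 46594066 in fasting libraries and from 46337950 to 48179706 in ad libitum libraries, of which the channel genes held 0.508 to 0.53% and 0.468 to 0.54%. All 10 dopamine neuron markers passed the filter on low counts. So did 19109 of all 19251 genes, so passing it is no check of the tissue label. Th, the first enzyme of dopamine synthesis, was at 105, 189 and 93.7 CPM under fasting and at 86.3, 92.6 and 236 CPM ad libitum. Ad libitum replicate 2 was highest in 3 of 4 cholinergic markers, with Chat at 22.9 CPM against 0.341 to 2.14 CPM in the other 5 libraries, and in 3 of 5 hypothalamic markers, with Pmch at 62.2, 125 and 115 CPM under fasting and at 22, 432 and 1.18 CPM ad libitum. The other members of these lists did not single it out: Isl1 was highest in fasting replicate 3, and Oxt and Avp were highest in fasting replicate 1. All 5 choroid plexus markers were highest in ad libitum replicate 2. Their sum was 31.2, 16.5 and 29.4 CPM under fasting and 17.1, 100 and 29.5 CPM ad libitum. Whether ad libitum replicate 2 held other tissue was not tested. Whether the libraries are separate animals is not stated, so p-values measure only the spread between these samples, which may be technical.

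Of the 57 genes, Scn7a alone was called, higher under fasting, which is 1.75% of them against 0.497% of all tested genes called in either direction and 0.147% called higher. A single call is too few to set these shares apart. At an unadjusted p below 0.05 there were 11 channel genes, 19.3% against 20.4% of all tested genes. They were split into 8 higher and 3 lower, that is 14.0% and 5.26%, against 8.74% and 11.6% of all tested genes. The values of the 2 diets did not overlap in 13 channel genes, 22.8% against 27.5% of all tested genes. In 9 of these the fasting values lay above, 15.8% against 12.5%, and in 4 they lay below, 7.02% against 15.0%. The totals were thus near the background of all tested genes. The shares by direction rest on few genes, among them Trpv1, which met the low-count filter through its fasting libraries. The gaps of these shares to the background were not tested. Without ad libitum replicate 1 the unadjusted count was 32 (56.1% against 27.4%). Without any other single library it was 6 to 14 (10.5 to 24.6%, against 12.8 to 18.5% of all tested genes). The log2 fold change was above 0 in 39 of the 57 (68.4%, against 49.1% of all tested genes), and its median was 0.09, against 0.00 for all tested genes.

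**Figure D1:**
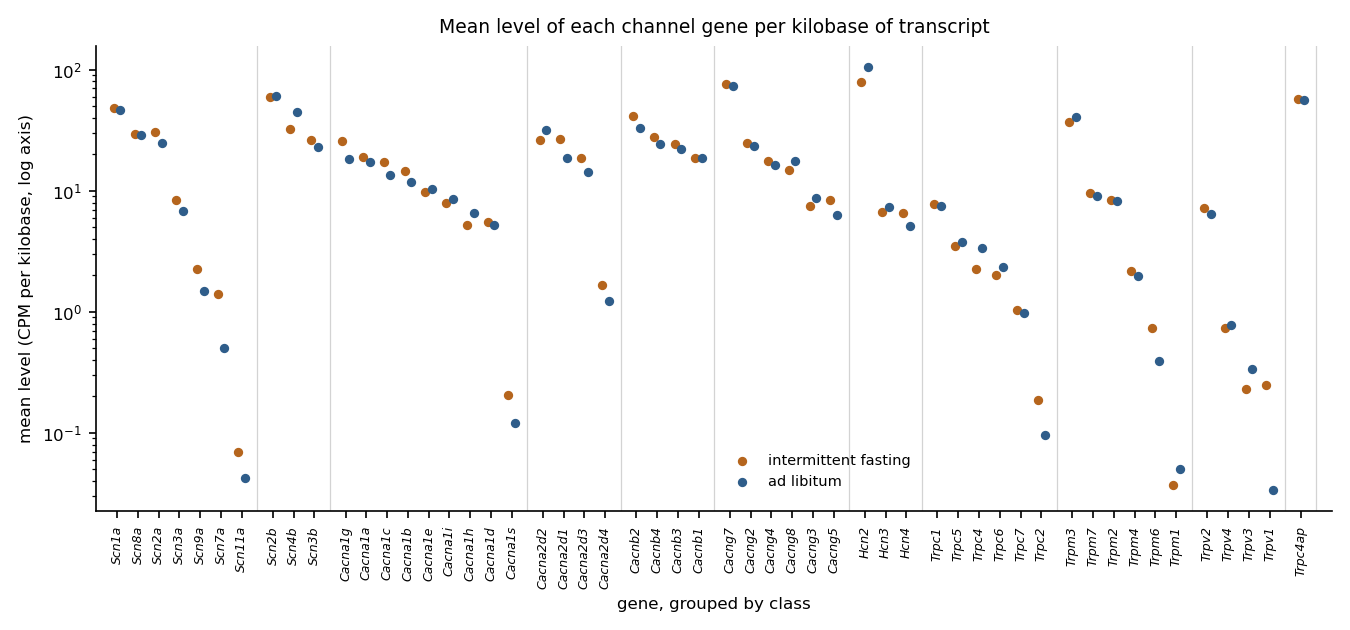
Mean level of 53 of the genes in CPM per kilobase of the principal transcript on a log axis, grouped by class and ordered within a class, with fasting in brown on the left of each pair and ad libitum in blue on the right. Hcn2 and Cacng7 stood highest and Scn11a and Trpm1 low in both diets, and Trpv1 was as low as these in the ad libitum mean.

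Per kilobase of transcript, Hcn2 was among the most abundant channel genes, with 79.6 CPM per kilobase under fasting and 106 CPM per kilobase ad libitum. Cacng7 had 76.2 and 73.7 CPM per kilobase, and its range over the 6 libraries, 60.8 to 93.5, overlapped with that of Hcn2, 74.1 to 121. Among pore-forming subunits the leading genes were Scn1a for sodium channels, with 48.6 and 46.7 CPM per kilobase, Cacna1g for calcium channels, with 26.0 and 18.2, Trpm3 for TRPM channels, with 37.0 and 40.5, and Trpv2 for TRPV channels, with 7.24 and 6.46. The ranges of Scn1a and Trpm3 over all libraries overlapped, and that of Cacna1g, 11.3 to 31.3, held that of Cacna1a, 13.7 to 21. At the low end, 52 genes had a median of at least 1 CPM and the other 5 were Cacna1s, Scn11a, Trpc2, Trpm1 and Trpv1.

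The one called gene, Scn7a, belongs to the sodium channel pore-forming subunits. Scn7a (ENSMUSG00000034810) encodes a sodium-concentration sensor related to the voltage-gated channels, known from glia and from neurons of organs that monitor blood sodium. It stood at 10.1, 9.5 and 11.4 CPM in the fasting libraries and at 3.58, 4.71 and 2.74 CPM in the ad libitum libraries. Every fasting library was above every ad libitum library. The means were 10.3 ± 0.99 and 3.67 ± 0.99 CPM (SD, n = 3 libraries each), or 2.81-fold (log2 1.49, SE 0.20, edgeR adjusted p = 0.0422). The fold held without any 1 library, between 1.32 and 1.70 on the log2 scale, but the call did not: the edgeR adjusted p was 0.246, 0.0691 and 0.287 without fasting replicates 1, 2 and 3, and 0.0335, 0.0372 and 0.115 without ad libitum replicates 1, 2 and 3. DESeq2 also called it (adjusted p = 2.34e-09), whereas limma-voom did not (adjusted p = 0.0541).

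Markers of other cell types had unequal levels in the diets. All 5 ependymal markers had a log2 fold change above 0, with a summed level of 27.7, 14.9 and 34.1 CPM under fasting and 13.2, 17.7 and 15.6 CPM ad libitum. Foxj1, which made up much of that sum, was at 14, 11.3 and 15.8 CPM under fasting and at 11.7, 14.6 and 13 CPM ad libitum. Ccdc153 was at 4.68, 0.855 and 6.78 CPM against 0.148, 0.413 and 0.0641 CPM ad libitum, and Tmem212 likewise had every fasting library above every ad libitum library, as Scn7a did. Of the 5, 0 were called by edgeR, at adjusted p-values of 0.102 for Ccdc153 and 0.0755 for Tmem212. Astrocyte markers ran the other way in 6 of 7 genes, with a summed level of 2530 to 2810 CPM under fasting and 2860 to 3800 CPM ad libitum, and Aqp4 was at 174, 176 and 176 CPM against 279, 312 and 468 CPM ad libitum. Markers of oligodendrocytes and microglia were lower under fasting in all 8 genes of each list by log2 fold change, with summed levels of 9590 to 12000 and 269 to 274 CPM under fasting and 13600 to 18500 and 342 to 469 CPM ad libitum, and 2 of the microglial genes, Fcrls and C1qa, were called lower. No gene of these 4 lists was at 0 in any library. The part of cell type composition in the channel results was not tested, and in bulk tissue fewer cells of a type and less RNA per cell cannot be told apart.

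Scn7a lies in a cluster of sodium channel genes on chromosome 2 with Scn1a, Scn2a, Scn3a and Scn9a, so it mattered whether reads of these relatives could be told apart. Only 0.05% of the words of 31 bases in the transcripts of Scn7a also occur in other genes, against 7.29%, 9.16%, 9.57% and 6.01% for Scn1a, Scn2a, Scn3a and Scn9a.

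The other sodium channel pore genes differed by less. All 8 of the class had a log2 fold change above 0, against 49.1% of all tested genes, with a median of 0.42. The fasting values lay above the ad libitum values in 4 of the 8, against 12.5% of all tested genes. The class is small, and its gaps to the background were not tested. Scn2a (ENSMUSG00000075318), a channel of axons and of excitatory neurons, was at 298, 254 and 272 CPM under fasting and at 194, 225 and 243 CPM ad libitum. The groups were close but did not overlap, with a log2 difference of 0.31 (SE 0.10, edgeR adjusted p = 0.15). Scn3a, which is most abundant before birth, was at 80.8, 76.8 and 81.4 CPM against 52, 71.8 and 69.8 CPM ad libitum, a log2 difference of 0.30 (SE 0.12, edgeR adjusted p = 0.226). Scn9a, best known from pain-sensing neurons, was at 21.6, 21.4 and 23.8 CPM against 8.15, 18.7 and 17 CPM ad libitum (log2 fold change 0.61, SE 0.30). Ad libitum replicate 1 was the lowest of the 6 libraries for Scn2a, Scn3a, Scn9a and Scn11a. Without it the log2 fold change was 0.17 for Scn3a and 0.32 for Scn9a, against 0.30 and 0.61 with all libraries.

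Scn1a and Scn8a, the class members with the most counts, had fold changes near 0. Scn1a, the channel of fast-spiking inhibitory neurons, was at 399, 409 and 374 CPM under fasting, inside the ad libitum span of 499, 285 and 354 CPM. Its log2 fold change was 0.06 (SE 0.20). Scn8a, the channel of the axon initial segment and nodes of Ranvier, was likewise inside its ad libitum span, with 344, 313 and 332 CPM under fasting and 419, 270 and 281 CPM ad libitum, a log2 difference of 0.03 (SE 0.17). Scn11a, a channel of pain-sensing neurons, had at most 22 counts in any library.

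The 4 sodium channel beta subunits, which tune gating and bind adhesion molecules, had a median log2 fold change of 0.05, with 0 called by edgeR, DESeq2 or limma-voom and 0 at an unadjusted p below 0.05. Scn4b, which supports resurgent sodium current, was at 143, 188 and 154 CPM under fasting and at 253, 283 and 130 CPM ad libitum, where replicate 3 lay below all fasting libraries. Scn2b was nearly level, with 304, 270 and 264 CPM against 296, 263 and 281 CPM ad libitum (log2 fold change 0.00, SE 0.08).

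**Figure D2:**
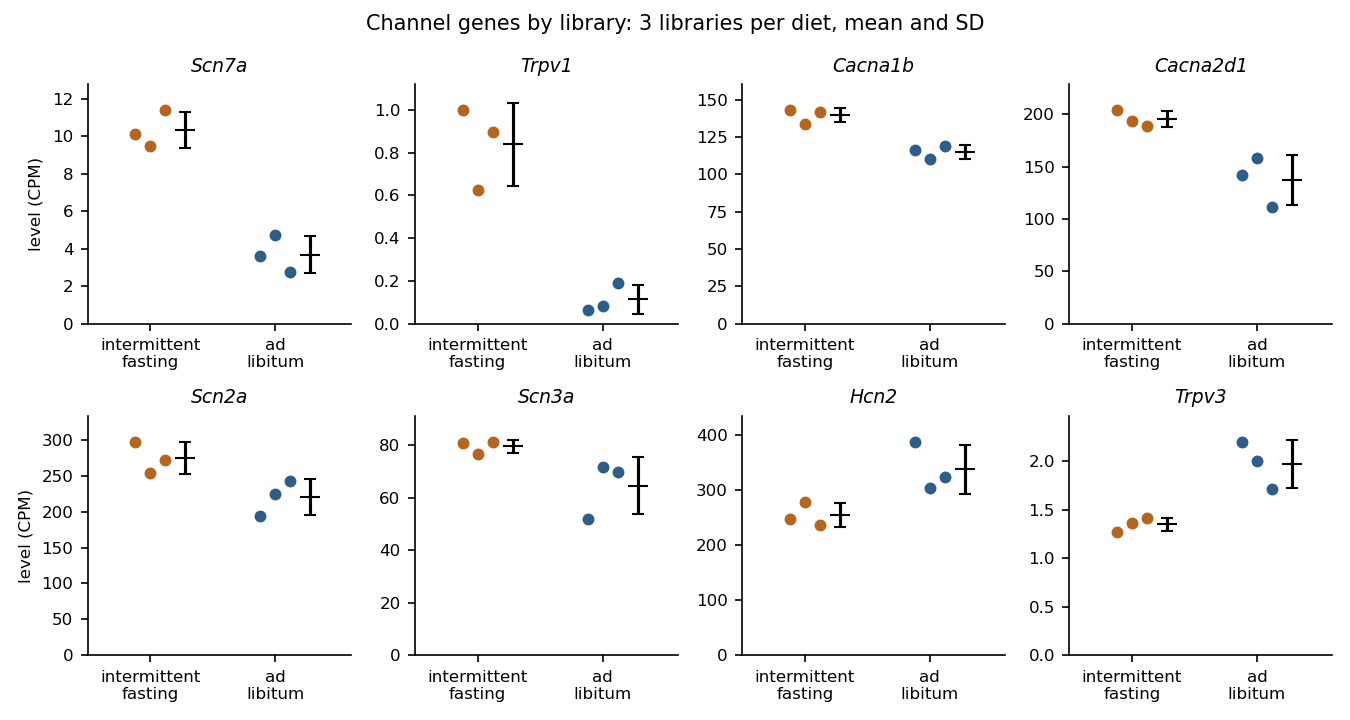
Level in CPM of 8 channel genes in each library, with the 3 fasting libraries on the left, the 3 ad libitum libraries on the right, and the mean with its SD beside each group. All 8 are from the 13 of 57 channel genes in which the diets did not overlap, 22.8% against 27.5% of all tested genes. They are thus not typical of the channel genes. The gap is widest relative to the spread for Scn7a.

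Calcium channel pore-forming subunits had a median log2 fold change of 0.14, with 6 of 9 above 0 and 0 called by edgeR. At an unadjusted p below 0.05 there were 2, and DESeq2 called 1, Cacna1b. Cacna1b (ENSMUSG00000004113), the N-type channel that triggers transmitter release, was at 143, 134 and 142 CPM under fasting and at 116, 110 and 119 CPM ad libitum. The spread within each diet was small and the diets were well apart, yet the difference was modest, with means of 140.0 ± 5.12 and 115 ± 4.89 CPM (SD, n = 3 libraries each) and a log2 difference of 0.28 (SE 0.06, edgeR adjusted p = 0.0712). DESeq2 gave an adjusted p of 0.00195 and limma-voom one of 0.081. The edgeR adjusted p was 0.0487 without ad libitum replicate 1, but 0.11 to 0.3 with any other single library left out. Cacna1s, the channel of skeletal muscle, was the other and had at most 1.59 CPM in any library.

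Cacna1d and Cacna1c encode the neuronal L-type channels, of which Cacna1d is the one linked to pacemaking in dopamine neurons. Cacna1d was at 48.4, 45.6 and 49.6 CPM under fasting and at 47.9, 40.8 and 46.3 CPM ad libitum, and the diets overlapped. Its log2 fold change was 0.09 with an SE of 0.07. Cacna1c was at 138, 93 and 111 CPM against 128, 69.4 and 67.7 CPM ad libitum, where replicate 1 was among the fasting values.

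The T-type channel genes, which open near the resting potential and favour burst firing, had unlike values. Cacna1g was at 254, 176 and 203 CPM under fasting and at 216, 91.6 and 137 CPM ad libitum, a log2 difference of 0.51 (SE 0.33). Without ad libitum replicate 1 it was 0.89, and without ad libitum replicate 2 it was 0.25. Cacna1h, by contrast, was highest in ad libitum replicate 2, with 34.5, 43.4 and 51.5 CPM under fasting and 36.8, 73.1 and 50.5 CPM ad libitum (log2 fold change -0.31, SE 0.28). Cacna1i overlapped between diets, as did the P/Q-type gene Cacna1a (156, 146 and 152 CPM against 167, 108 and 136 CPM ad libitum) and the R-type gene Cacna1e (135, 148 and 154 CPM against 108, 191 and 167 CPM ad libitum).

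Among the alpha2delta subunits, which carry the pore to the membrane and to synapses, Cacna2d1 (ENSMUSG00000040118), the binding site of gabapentin, was at 204, 194 and 189 CPM under fasting and at 142, 158 and 111 CPM ad libitum. All fasting libraries were above all ad libitum libraries, with a log2 difference of 0.51 (SE 0.12, edgeR adjusted p = 0.0982, DESeq2 adjusted p = 0.00465). Cacna2d2, its close relative, lay on the other side of 0, with 124, 143 and 142 CPM against 138, 159 and 193 CPM ad libitum (log2 fold change -0.26, SE 0.13). Cacna2d3 and Cacna2d4 had log2 fold changes of 0.37 and 0.42 with SEs of 0.21 and 0.40, and ranged over 0.21 to 0.56 and 0.15 to 0.94 with single libraries left out. Within the class 0 of 4 were called by edgeR and 1 had an unadjusted p below 0.05.

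The cytoplasmic beta subunits, which mask a retention signal of the pore and set its gating, all had log2 fold changes above 0, from 0.01 for Cacnb1 to 0.33 for Cacnb2, with 0 of 4 called by edgeR, DESeq2 or limma-voom and 0 at an unadjusted p below 0.05. Cacnb2 was at 98.5, 76.8 and 87.1 CPM under fasting and at 84.3, 59.1 and 64.7 CPM ad libitum, and ad libitum replicate 1 exceeded fasting replicate 2. Cacnb4, the most abundant by CPM, was at 263, 206 and 219 CPM against 270, 159 and 173 CPM ad libitum.

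Most gamma genes measured here encode TARPs, which attend AMPA-type glutamate receptors rather than calcium channels. The 6 had a median log2 fold change of 0.06, with 0 called by edgeR, DESeq2 or limma-voom and 0 at an unadjusted p below 0.05. Cacng2, which encodes stargazin, was at 142, 133 and 135 CPM under fasting and at 151, 109 and 130 CPM ad libitum. Cacng3 and Cacng8 were highest in ad libitum replicate 2, at 29.9 and 41.9 CPM, and lowest in ad libitum replicate 1, at 17.7 and 25.4 CPM. Without ad libitum replicate 1 Cacng3 was called lower (log2 fold change -0.41, edgeR adjusted p = 0.0479), against -0.23 with all libraries. Of 10 AMPA receptor subunits and other AMPA receptor auxiliaries, 5 had a log2 fold change above 0 and 5 below, with a median of 0.01.

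HCN genes were the one class with a negative median, -0.27 over 4 genes. Hcn2 (ENSMUSG00000020331), the most abundant HCN gene, was at 248, 278 and 237 CPM under fasting and at 388, 303 and 323 CPM ad libitum. The fasting libraries lay below the ad libitum libraries without overlap, with means of 254 ± 21.6 and 338 ± 44.3 CPM (SD, n = 3 libraries each) and a log2 difference of -0.41 (SE 0.11, edgeR adjusted p = 0.109, DESeq2 adjusted p = 0.0166). Hcn4, the pacemaker channel of the heart, had values on the other side of 0, with 50.7, 34.8 and 35.4 CPM against 48.1, 18.6 and 28.1 CPM ad libitum (log2 fold change 0.35, SE 0.38). Hcn3 was at 24.1, 29.6 and 26.4 CPM against 20.8, 29.4 and 37.8 CPM ad libitum.

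Genes listed as HCN channel partners had log2 fold changes on the same side of 0 as Hcn2. All 4 of this list lay below 0, with a median of -0.46, and 0 were called by edgeR. The diets overlapped in all but Pex5l, and Kcne2 and Irag2 had at most 0.537 and 0.991 CPM in any library. Pex5l, which encodes the subunit that steers HCN channels within neurons, was at 240, 263 and 232 CPM under fasting and at 361, 333 and 290 CPM ad libitum (log2 fold change -0.42, SE 0.09, edgeR adjusted p = 0.0819, DESeq2 adjusted p = 0.00352). Of the 5 GABA neuron markers 4 were also below 0, with a summed level of 1090, 1030 and 1390 CPM under fasting and 1510, 1270 and 1360 CPM ad libitum, which overlapped, and none was at 0 in any library. Among other lists, 8 of 10 dopamine neuron markers and all 8 oligodendrocyte markers lay below 0, whereas all 3 glutamate neuron markers lay above 0. The part of these cell types in the HCN values was not tested.

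TRPV genes held the largest fold change of all 57. Trpv1 (ENSMUSG00000005952), the capsaicin and heat receptor, was rare, with 44, 27 and 42 counts in the fasting libraries and 3, 4 and 9 counts in the ad libitum libraries. In CPM this was 1, 0.624 and 0.896 against 0.0635, 0.0826 and 0.192 ad libitum, and the lowest fasting library exceeded the highest ad libitum library. The log2 fold change was 2.87 with an SE of 0.43, and the gene was not called (edgeR adjusted p = 0.0542). With at most 9 counts in any ad libitum library, Trpv1 met the low-count filter through its fasting libraries. It was too rare to be tested under the stricter mean-count minimum. Its p-values therefore rest on very few ad libitum counts. DESeq2 gave an adjusted p of 0.000127, and leaving out single libraries gave edgeR adjusted p-values from 0.0331 to 0.287. Trpv3, a warmth receptor of skin, was at 1.27, 1.36 and 1.41 CPM against 2.2, 2 and 1.71 CPM ad libitum, without overlap, a log2 difference of -0.55 (SE 0.17, edgeR adjusted p = 0.143). Trpv2 was at 22, 20.3 and 21 CPM against 18.3, 18.7 and 19.4 CPM ad libitum, also without overlap, a log2 difference of 0.16 (SE 0.06). Trpv4, an osmosensitive channel, did not overlap either, but by a margin of only 2.43 CPM in the highest fasting library against 2.48 CPM in the lowest ad libitum library (log2 fold change -0.08, SE 0.13).

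Promoters are shown for the pair of genes with the largest fold changes, Trpv1 and Scn7a, and for Cacna1b and Hcn2, abundant genes on either side of 0, because these pairs differ in CpG content. Of the 57 genes 44 had at least 1 promoter in the RefSeq table on GRCm38.p6, another build than the GRCm39 of the files. Each line gives the 250 bases before the annotated start, 5′ to 3′ on the strand of the gene, with CpG pairs in capitals. The windows are chr2:66784911-66785160 on the minus strand for Scn7a, chr11:73233899-73234148 on the plus strand for Trpv1, chr2:24763153-24763402 on the minus strand for Cacna1b and chr10:79716384-79716633 on the plus strand for Hcn2.
Scn7a: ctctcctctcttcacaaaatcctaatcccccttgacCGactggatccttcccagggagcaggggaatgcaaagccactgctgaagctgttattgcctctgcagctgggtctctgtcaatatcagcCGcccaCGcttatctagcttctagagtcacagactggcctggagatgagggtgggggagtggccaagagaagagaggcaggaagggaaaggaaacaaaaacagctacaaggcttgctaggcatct
Trpv1: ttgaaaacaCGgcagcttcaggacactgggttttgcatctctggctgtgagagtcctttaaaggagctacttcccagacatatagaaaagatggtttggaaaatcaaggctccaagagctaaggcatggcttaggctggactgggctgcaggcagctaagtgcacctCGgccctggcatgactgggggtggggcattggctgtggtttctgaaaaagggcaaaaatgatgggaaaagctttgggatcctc
Cacna1b: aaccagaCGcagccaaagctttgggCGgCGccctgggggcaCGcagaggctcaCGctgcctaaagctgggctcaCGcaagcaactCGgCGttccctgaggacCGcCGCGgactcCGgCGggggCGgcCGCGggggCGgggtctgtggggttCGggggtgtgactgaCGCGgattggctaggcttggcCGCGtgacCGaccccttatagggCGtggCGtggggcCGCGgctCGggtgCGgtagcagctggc
Hcn2: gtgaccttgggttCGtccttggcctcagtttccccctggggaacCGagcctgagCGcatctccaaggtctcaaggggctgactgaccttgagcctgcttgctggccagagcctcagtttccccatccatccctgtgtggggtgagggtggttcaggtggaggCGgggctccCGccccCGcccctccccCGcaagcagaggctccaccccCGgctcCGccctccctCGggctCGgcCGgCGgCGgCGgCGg
Scn7a and Trpv1 had 3 and 2 CpG pairs, and Cacna1b and Hcn2 had 29 and 16. The median was 6 over all 32851 promoters of the table, with quartiles of 2 and 16. Searched on both strands, the glucocorticoid receptor motif AGAACA, the CREB site TGACGTCA and the TATA box TATAAA were in none of the 4 windows and in 16.1%, 1.55% and 12.4% of all promoters. The Sp1 box GGGCGG, which overlaps a CpG, was in those of Scn7a, Cacna1b and Hcn2 and in 32.7% of all promoters. These are matches of letters and were not tested as binding sites. The difference in CpG content was a reason for showing these 4 promoters, and a link to fold change was not tested.

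TRPM genes had a median log2 fold change of 0.06, with 0 of 6 called by edgeR, DESeq2 or limma-voom and 0 at an unadjusted p below 0.05. Trpm7, a channel fused to a kinase that carries magnesium, had very little spread, with 67.6, 69.4 and 67.2 CPM under fasting and 63.2, 64.5 and 65.9 CPM ad libitum, so the diets did not overlap at a log2 difference of only 0.08 (SE 0.05). Its relative Trpm6 had the widest relative range of the class, with 7.62, 2.06 and 4.75 CPM against 5.36, 0.805 and 1.56 CPM ad libitum. Trpm2, which opens on oxidative stress, was at 64.9, 59 and 60.9 CPM against 75.6, 47.5 and 57.4 CPM ad libitum. Trpm3, a heat-activated channel, was at 190.0, 197 and 189 CPM against 202, 181 and 248 CPM ad libitum, and Trpm1, known from retinal bipolar cells, had at most 21 counts in a library.

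TRPC genes, whose channels open downstream of receptors coupled to phospholipase C, had a median log2 fold change of 0.07, with 0 of 7 called by edgeR, DESeq2 or limma-voom and 0 at an unadjusted p below 0.05. Trpc4 was at 6.23, 8.67 and 8.87 CPM under fasting and at 7.18, 13.4 and 14.8 CPM ad libitum (log2 fold change -0.57, SE 0.29). Without ad libitum replicate 1 it was called lower (log2 fold change -0.83, edgeR adjusted p = 0.0391). Trpc2, which serves pheromone detection in the mouse, is uncertain: 99.0% of its transcript words also occur in other genes, mainly Xntrpc, and it had 29, 0 and 45 counts under fasting and 39, 0 and 0 counts ad libitum. Trpc4ap, the binding partner that is no channel, had the smallest relative range over the 6 libraries, with 174, 181 and 174 CPM against 176, 173 and 168 CPM ad libitum.

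Other channel genes overlapped between the diets. Scn3b, a sodium channel beta subunit, was at 109, 113 and 105 CPM under fasting and at 66.9, 100 and 119 CPM ad libitum. Cacng5 was at 38.1, 27.4 and 28.2 CPM under fasting and at 37.6, 13.5 and 19.5 CPM ad libitum, where replicates 2 and 3 were low. Cacnb3 and Cacng4 had log2 fold changes of 0.12 and 0.11. Trpc1, Trpc5, Trpc6 and Trpc7 had log2 fold changes of 0.08, -0.13, -0.24 and 0.07. Trpm4, a channel opened by intracellular calcium, was at 10.1, 8.48 and 8.83 CPM under fasting and at 9, 7.68 and 8.38 CPM ad libitum (log2 fold change 0.13).

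**Figure D3:**
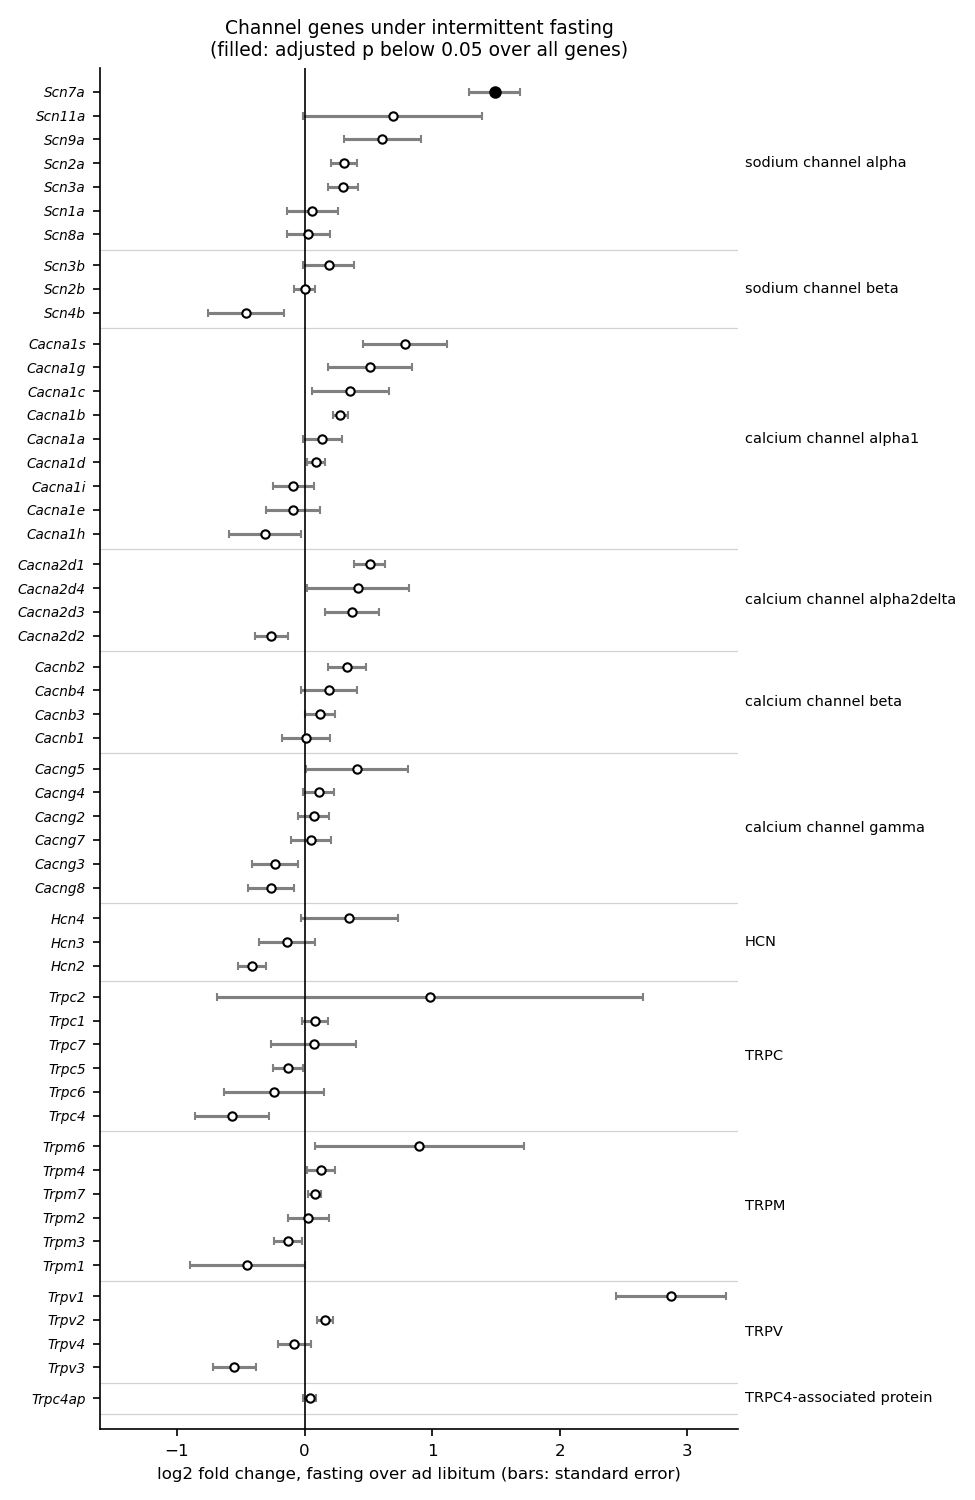
Log2 fold change, fasting over ad libitum, of 53 of the genes with the standard error, grouped by class from sodium channels at the top to Trpc4ap at the bottom. Scn7a is the filled point at 1.49, Trpv1 lies furthest right at 2.87, and Trpc4 and Trpv3, at -0.57 and -0.55, lie furthest left.

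Beyond the 57, 9 lists of related genes held 77 tested genes. By edgeR 0 of them were called, limma-voom called 0, and DESeq2 called 4, 5.26% against 7.40% of all tested genes. At an unadjusted edgeR p below 0.05 there were 13, 16.9% against 20.4%, with 5 higher (6.49% against 8.74%) and 8 lower (10.4% against 11.6%). Among sodium channel partners (11 genes, median log2 fold change -0.04) Fgf11, an intracellular growth factor homologue, was at 16.7, 26.1 and 22.4 CPM under fasting and at 29.7, 42.6 and 39.7 CPM ad libitum (log2 fold change -0.78, SE 0.20, edgeR adjusted p = 0.115, DESeq2 adjusted p = 0.00312). Fgf14, of the same family, had a log2 difference of 0.22 (SE 0.08). In the complex of the sodium leak channel (5 genes, median 0.12) the pore gene Nalcn was at 187, 170.0 and 175 CPM against 153, 151 and 165 CPM ad libitum (log2 fold change 0.18, SE 0.06), and its partner Nalf2 had a log2 difference of -0.31 (SE 0.07, edgeR adjusted p = 0.0868, DESeq2 adjusted p = 0.0279).

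Calcium channel partners (16 genes) had a median log2 fold change of 0.02, and the adaptor gene Stac2 was at -0.49 (SE 0.17). Calcium release and store-operated channels (11 genes) had a median of -0.07, with Orai2 at 0.21 (SE 0.07) and Orai3 at 0.27 (SE 0.10). Calcium pumps and exchangers (12 genes) had a median of 0.04. In that list the exchanger gene Slc24a3 was at 309, 204 and 248 CPM under fasting and at 201, 126 and 161 CPM ad libitum (log2 fold change 0.64, SE 0.22, edgeR adjusted p = 0.18, DESeq2 adjusted p = 0.0214). Polycystin, mucolipin and TPC channels (7 of 9 genes tested) had a median of -0.19, and of the epithelial sodium channel 1 of 4 genes was tested, Scnn1a, at -0.11.

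The channel genes varied more among ad libitum libraries than among fasting libraries. The SD of log2 CPM over 3 libraries had a median of 0.12 under fasting and 0.36 ad libitum, against 0.10 and 0.16 for all tested genes. It was larger ad libitum in 51 of the 57 (89.5%, against 67.4% of all tested genes). Ad libitum replicates 1 and 2 sat at the ends: replicate 1 was the highest or lowest of the 6 libraries in 54.4% of the channel genes against 36.5% of all genes, and replicate 2 in 56.1% against 45.8%. Fasting replicates 2 and 3 were at an end in 10.5% and 15.8%, against 26.1% and 23.6% of all genes. Counts of this kind are descriptions and were not tested.

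**Figure D4:**
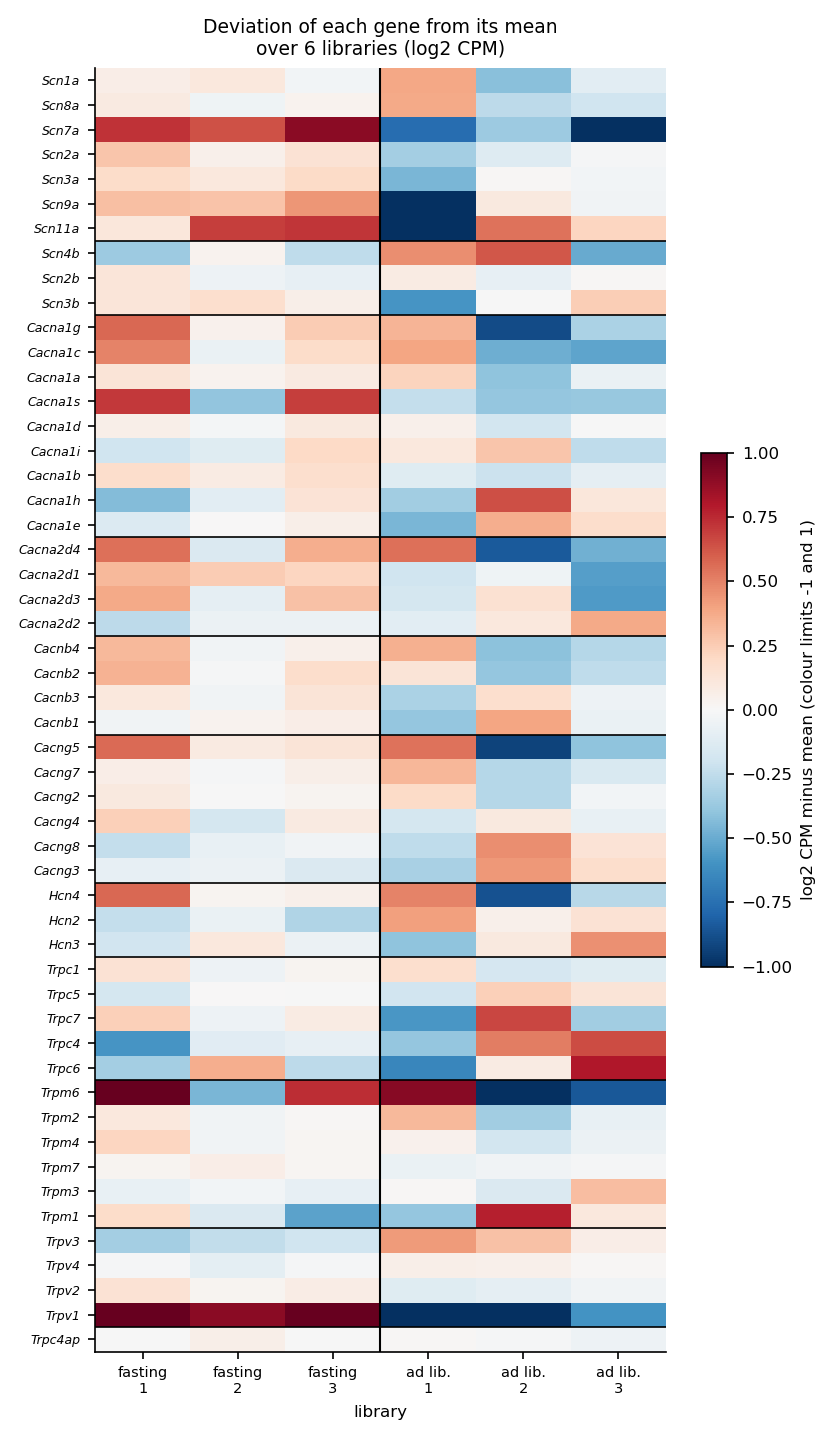
Deviation of each plotted gene from its own mean over the 6 libraries in log2 CPM, red above and blue below, with fasting libraries on the left, ad libitum libraries on the right and lines between classes. Of the 53 genes given by name Trpc2 is left out, and values beyond -1 and 1 take the end colours. Many genes are opposite in colour between ad libitum replicates 1 and 2, whereas the fasting libraries are paler.

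**Figure D5:**
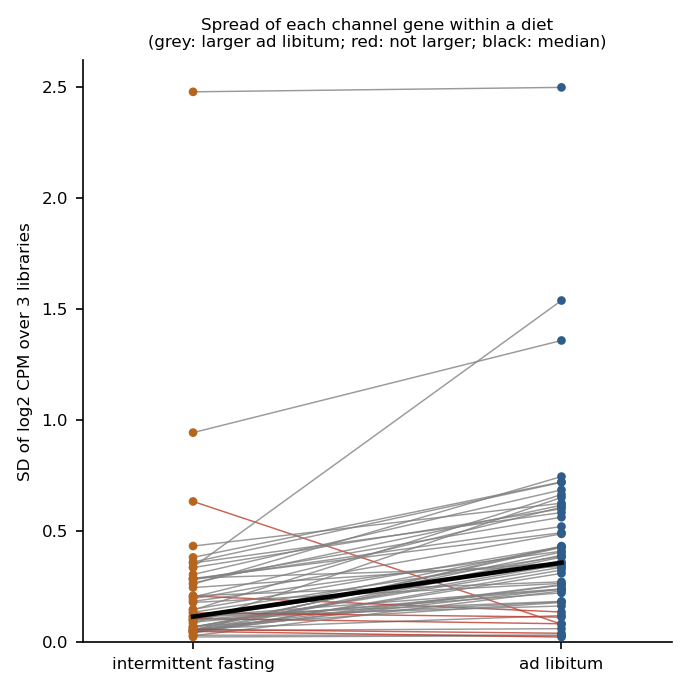
SD of log2 CPM over the 3 libraries of each diet, fasting on the left and ad libitum on the right, with 1 line per gene and the median in black. The median is 0.12 under fasting and 0.36 ad libitum, and 6 genes in red do not have the larger SD ad libitum.

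Sets of channel genes lay at opposite ends in these libraries. Of the 57, 10 genes, among them Scn1a, Scn8a, Cacna1a, Cacnb4, Cacng2, Cacng7, Trpc1 and Trpm2, were highest in ad libitum replicate 1 and lowest in ad libitum replicate 2, which is 17.5% against 5.91% of all tested genes. In 7 others the ends were reversed, 12.3% against 4.82%: Cacna1e, Cacnb1, Cacnb3, Cacng3, Cacng8, Trpc5 and Trpc7 were lowest in ad libitum replicate 1 and highest in ad libitum replicate 2. Levels of the more abundant glutamate neuron markers also lay apart in these libraries. All 3 had a log2 fold change above 0, none was called or at 0 in any library, and their sum was 583, 457 and 483 CPM under fasting and 531, 269 and 269 CPM ad libitum. Slc17a6, the vesicular glutamate transporter of subcortical neurons, was at 419, 365 and 340.0 CPM under fasting and at 357, 184 and 229 CPM ad libitum, so ad libitum replicate 1 was within the fasting range. Slc17a8, the least abundant of the 3, ran the other way, with 0.974 CPM in ad libitum replicate 1, the lowest of the 6 libraries, and 4.4 CPM in ad libitum replicate 2, the highest. The summed level of 6 pan-neuronal markers was 4830, 4810 and 4510 CPM under fasting and 5410, 3700 and 4300 CPM ad libitum. The part of these marker differences in the channel values was not tested.

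Counts of calls depended on single libraries, and so did fold changes of genes that were not called. With single libraries left out, log2 fold changes ranged over 0.20 to 0.73 for Cacna1c, 0.07 to 0.79 for Hcn4, 0.12 to 0.92 for Cacng5, 0.40 to 2.02 for Trpm6, -0.73 to -0.25 for Scn4b and -0.52 to -0.02 for Cacna1h. Without ad libitum replicate 1, edgeR called 6 channel genes, 10.5% against 6.18% of all tested genes. Of these 4 were higher (7.02% against 2.29%), among them Scn7a, Trpv1 and Cacna1b, and 2 were lower, Trpc4 and Cacng3 (3.51% against 3.89%). The share called higher includes Trpv1, which met the low-count filter through its fasting libraries. At an unadjusted p below 0.05 this fit held 32 channel genes, 56.1% against 27.4% of all tested genes, with 22 higher and 10 lower. Without ad libitum replicate 2 edgeR called 1, Scn7a, 1.75% against 0.235%, with 14 at an unadjusted p below 0.05 (24.6% against 18.5%). Without fasting replicates 1, 2 and 3 or ad libitum replicate 3 it called 0 channel genes, against 0.00%, 0.354%, 0.00% and 0.00521% of all tested genes, and 6, 11, 7 and 10 channel genes had an unadjusted p below 0.05, against 12.8%, 17.5%, 13.0% and 16.7% of all tested genes.

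The choice of tool also mattered. DESeq2 on all libraries called 6, 10.7% against 7.40% of all tested genes: Scn7a, Trpv1, Cacna1b and Cacna2d1 higher (7.14% against 2.90%), and 2 lower, among them Hcn2 (3.57% against 4.51%). The share called higher includes Trpv1, which had at most 9 counts in any ad libitum library. limma-voom called 0 against 0.167%, with 12 at an unadjusted p below 0.05 (21.1% against 20.3%). Scn7a remained the single call of edgeR under RLE size factors, without a filter and under a mean-count minimum of 50, against 0.440%, 0.421% and 0.533% of all tested genes. The mean-count minimum left 52 channel genes to test, and Trpv1 was not among them. Without robust shrinkage edgeR called 0 against 0.0471%, with 11 at an unadjusted p below 0.05 (19.3% against 20.6%). On simulated data 26.32% of the DESeq2 calls and 8.48% of the edgeR calls were false. That simulation drew each gene independently with the same spread in both diets. It lacked the wider ad libitum spread of these libraries, so it does not give the share of false calls here.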

How the data were processed

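Estimated counts per gene were deposited by the authors as 1 table of whole numbers for 6 libraries. Per the submitters' processing notes, Salmon, DESeq2 1.40.2 and the build GRCm39 (mm39) were named, without role or order. Per the labels' protocols, a RNeasy Lipid Tissue kit gave the RNA and a strand-keeping kit, NEBNext Ultra II Directional, the libraries. Salmon shares reads between like transcripts by estimation, so counts of close relatives are less certain.

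Genes were filtered with edgeR's filterByExpr, leaving 19109 of 19251, scaled by TMM and tested in R 4.3.3 with edgeR 4.0.16 (robust quasi-likelihood, Benjamini-Hochberg adjustment), fasting over ad libitum, with no covariate. Alternatives were RLE size factors, no filter, a mean count of at least 50, no robust shrinkage, DESeq2 1.42.0, limma 3.58.1 (voom), the replicate number as a block, and leaving out each library. The scripts were tested on simulated data. Values per library were due for called channel genes, for up to 4 per class by smallest p, for the highest per kilobase, and for up to 2 per related list. Other genes with values were named after these were seen. Members and gene lists were chosen with earlier results of these data known. Lengths and shared words came from GENCODE M21. The smallest exact p of 3 against 3 libraries is 0.1, so no single-gene permutation test was used. Values of 4 of the channel genes are not reported here by name, though all 57 enter the counts.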

Additional observations from a re-analysis of the deposited data

How the results depend on the processing

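Of all tested genes, edgeR called 95 (28 higher, 67 lower), 9 without robust shrinkage (7 and 2) and 285 with the replicate block (63 and 222), DESeq2 called 1395 (546 and 849), limma-voom 32 (17 and 15), and edgeR 0 to 1187 with single libraries left out (45 and 23 without fasting replicate 2, 30 and 15 without ad libitum replicate 2). Of the channel genes these settings called 1, 0, 1 (Trpv1 in place of Scn7a), 6, 0 and 0 to 6, and of the related lists DESeq2 called 4, the block 3 and leaving out single libraries 0 to 5. The correlations of deviations between same-numbered libraries were 0.21, -0.04 and -0.11, and those between other fasting and ad libitum libraries ran from -0.14 to 0.19. The sources used here do not say what the replicate number stands for, and a shared batch or pairing was not tested. With 0 calls, 2452 and 2495 genes had an unadjusted p below 0.05 without fasting replicates 1 and 3.

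The median log2 fold change of the channel genes ranged over 0.04 to 0.17 with single libraries left out. Of 684 alternative values of the 53 named channel genes, 642 kept direction and side of the threshold, 9 newly passed it, 7 no longer did and 26, in 15 genes, changed sign. Sign changes arose on leaving out single libraries, with log2 ranges of -0.16 to 0.24 (Cacnb1), -0.33 to 0.09 (Hcn3), -0.01 to 0.38 (Scn3b), -0.07 to 0.04 (Scn2b), -0.53 to 0.19 (Trpc6), -0.23 to 0.01 (Trpm3), -0.08 to 0.25 (Cacng7), -0.12 to 0.30 (Scn1a), -0.09 to 0.26 (Scn8a), -0.01 to 0.31 (Cacna1a), -0.30 to 0.08 (Cacna1e), -0.23 to 0.03 (Cacna1i), -0.05 to 0.19 (Cacng2), -0.12 to 0.23 (Trpm2) and -0.16 to 0.56 (Trpc7). The cause was not tested. Depth limits Trpv1, Scn11a, Trpm1 and Trpc2.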
